A study of Mus musculus with 4 samples.

Results

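Polycomb and chromatin regulators are the enzymes and partner proteins that write, remove or read marks on histones and DNA. The set described here holds 40 mouse genes, and it was read from all array probe sets (groups of short probes against a transcript) whose annotated symbol is one of these genes. All 40 genes were found, on 99 of the 45037 probe sets of the series, which name 18193 genes in all. Expression was measured on Affymetrix mouse arrays in sorted bone marrow cells, with 1 array for each of 4 groups, so no value has a replicate of its own group.

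LSK cells carry no lineage markers but are positive for c-Kit and Sca-1, the fraction in which blood stem cells and multipotent progenitors are found. MP cells, the myeloid progenitors, carry c-Kit and lack Sca-1. The groups were Smo-deficient LSK and Smo-deficient MP (Smo flox/flox, Mx1Cre+), and WT LSK and WT MP (Smo flox/flox, Mx1Cre-). Controls thus carried the floxed Smo alleles too, and all mice received polyI:C, 3 injections of 20 ug per g on alternate days, 6 weeks before marrow was taken. Smo encodes Smoothened, the membrane protein that passes on the hedgehog signal. The Mx1 promoter that drives Cre responds to interferon, which polyI:C induces, so deletion is not limited to blood cells by design. Each genotype was 1 pool of marrow from 4 mice of both sexes, and its LSK and MP cells were sorted from that pool. The strain is entered as C57BL/6x129 for WT LSK but as C57BL/6x130, C57BL/6x131 and C57BL/6x132 for Smo-deficient LSK, WT MP and Smo-deficient MP, and no age is given.

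Polycomb repressive complex 1 (PRC1) places ubiquitin on histone H2A, and Polycomb repressive complex 2 (PRC2) methylates lysine 27 of histone H3, and both keep genes silent. DNA methyltransferases place methyl groups on cytosines followed by guanines (CpG), and TET enzymes oxidise them with 2-oxoglutarate, which the isocitrate dehydrogenases make. Several of these genes are known for their part in hematopoietic stem cells: Bmi1 is needed for their self-renewal, Dnmt3a for their differentiation, and mutations of DNMT3A, TET2, ASXL1, EZH2, IDH1 and IDH2 recur in human myeloid neoplasms.

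The promoters below are shown for Dnmt3b, Tet1 and Phc1, which were higher in LSK cells, and for Idh1, which was lower there. Each window runs from 250 bases before the annotated start to 50 after it, 5′ to 3′ on the gene's strand, from RefSeq on GRCm38.p6, and capitals mark CpG, the dinucleotide that DNMT and TET proteins act on. For Idh1, which has 2 annotated starts, the upstream one is shown.
Dnmt3b, chr2:153649199-153649498, plus strand: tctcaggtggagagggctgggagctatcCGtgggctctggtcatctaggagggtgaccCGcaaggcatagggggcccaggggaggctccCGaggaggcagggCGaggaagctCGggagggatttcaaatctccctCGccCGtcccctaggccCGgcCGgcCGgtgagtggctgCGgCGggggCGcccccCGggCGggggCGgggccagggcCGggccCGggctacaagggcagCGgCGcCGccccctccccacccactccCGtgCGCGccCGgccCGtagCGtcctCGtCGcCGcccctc
Tet1, chr10:62887275-62887574, minus strand: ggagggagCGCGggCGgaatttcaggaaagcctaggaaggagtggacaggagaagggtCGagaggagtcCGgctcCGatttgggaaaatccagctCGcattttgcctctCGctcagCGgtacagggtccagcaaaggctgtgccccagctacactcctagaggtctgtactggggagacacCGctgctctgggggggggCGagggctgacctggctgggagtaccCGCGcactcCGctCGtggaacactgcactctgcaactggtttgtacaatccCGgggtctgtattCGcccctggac
Phc1, chr6:122340178-122340477, minus strand: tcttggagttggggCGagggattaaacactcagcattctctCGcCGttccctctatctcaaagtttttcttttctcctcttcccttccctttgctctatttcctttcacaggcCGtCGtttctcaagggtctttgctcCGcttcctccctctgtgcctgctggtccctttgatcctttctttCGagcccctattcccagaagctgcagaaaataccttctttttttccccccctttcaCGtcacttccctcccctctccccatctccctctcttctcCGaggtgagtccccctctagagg
Idh1, chr1:65186430-65186729, minus strand: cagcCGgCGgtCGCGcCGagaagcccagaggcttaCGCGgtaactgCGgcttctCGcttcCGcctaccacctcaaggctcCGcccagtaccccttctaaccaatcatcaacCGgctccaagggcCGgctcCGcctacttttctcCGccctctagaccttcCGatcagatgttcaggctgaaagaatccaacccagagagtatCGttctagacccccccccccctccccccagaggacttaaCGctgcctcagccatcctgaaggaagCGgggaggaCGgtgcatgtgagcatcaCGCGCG

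These windows held 30 CpG for Dnmt3b, 17 for Tet1, 9 for Phc1 and 23 for Idh1. Over the 52 windows kept for 36 members the median was 24 CpG (range 2 to 57), against 7 over all 32851 windows, which include noncoding genes. Any member window on chromosome 18, where Hdac3 lies, was left out, while the 32851 windows were not limited in this way. Both strands were searched for 5 short motifs, none of which is contained in another. TGTGGT, the RUNX core, occurred in 19.2% of member windows and 16.8% of all windows. CACGTG, an E-box, occurred in 15.4% and 7.15%. The motif AGATAA, bound by zinc-finger factors of erythroid cells, occurred in 3.85% and 11.2%. The ETS motif CCGGAAGT occurred in 1.92% and 3.89%, and the E2F-like motif GGCGGGAA in 3.85% and 2.19%. None of the 5 was in the 4 windows printed above. A match is a description of the letters only.

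The arrays correlated with each other across probe sets with Pearson's r from 0.980 to 0.994. Smo itself, on the probe set 1427049_s_at, had log2 intensities of 6.13 in Smo-deficient LSK and 10.81 in WT LSK, and of 6.36 in Smo-deficient MP and 10.40 in WT MP. Its other probe set past the filter, 1427048_at, was lower by genotype too, at -3.05 in LSK and -1.78 in MP, and whether either lies in the deleted exons was not tested. All 8 stem and multipotent markers passed the test as higher in LSK and all 5 myeloid progenitor markers as lower. Of the megakaryocyte markers 5 of 6 were also higher in LSK (median 1.04), and of the mast cell and basophil markers past the filter 4 of 4 were lower (median -0.92). Neutrophil, macrophage, B cell, T and NK cell and mature erythroid markers had medians of -0.00, -0.02, 0.02, -0.04 and 0.14. The summed neutrophil level was 16.84 in Smo-deficient LSK and 16.18 in WT LSK, and 16.64 in Smo-deficient MP and 16.46 in WT MP. Kit was bright on all arrays, at log2 intensities from 12.31 to 12.65, while Ly6a, which encodes Sca-1, was not analysed here. For Actb, the array's 3′ control probe set exceeded its 5′ one, a measure of RNA quality, by 1.53 and 1.55 in LSK and 1.31 and 1.34 in MP on the log2 scale. For Gapdh it was 1.78 in Smo-deficient LSK and 1.57 in WT LSK, and 1.6 in Smo-deficient MP and 1.59 in WT MP. The hybridisation spikes averaged 11.10 in Smo-deficient LSK and 10.95 in WT LSK, and 10.58 in Smo-deficient MP and 10.90 in WT MP. The Actb measure was higher in both LSK arrays than in both MP arrays, and the Gapdh measure was not. The part of RNA quality or of the spikes in LSK minus MP and in the genotype differences was not tested.

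LSK was set against MP to find the genes that set the stem cell fraction apart. Among the members, Dnmt3b (1.20 on the log2 scale) and Tet1 (0.96) had the largest differences, both higher in LSK. The other de novo methyltransferase gene, Dnmt3a, and the Polycomb genes Phc1, Cbx2, Jarid2 and Rnf2 were higher in LSK by 0.44 to 0.69, and Idh1 was lower in LSK than in MP. Most other members differed little. The test was limma on all 22518 probe sets past a filter on dim signals (mean log2 intensity above 7.23, the median), with the pool as a block, and an adjusted p (Benjamini-Hochberg, two-sided) under 0.05 was called. Of the members, 74 of 99 probe sets and 39 of 40 genes were past the filter. Of these 74 probe sets, 16 were higher in LSK (21.6%) and 2 lower (2.70%), against 15.1% and 7.19% of all probe sets. With each gene read on its brightest probe set, 8 of 39 genes were higher (20.5%) and 1 lower (2.56%), against 16.4% and 7.54% of all genes. Most members are bright, and among probe sets with a mean log2 intensity of at least 10 the shares were 22.7% higher and 2.27% lower for the 44 of the members, against 17% and 10.8% for all 7960. The share higher was thus close to the background, and the median difference over the 39 genes was 0.08, against 0.00 over all genes.

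Dnmt3b, one of the methyltransferases that place new methyl marks, had log2 intensities of 12.70 in Smo-deficient LSK and 12.75 in WT LSK, against 11.59 in Smo-deficient MP and 11.46 in WT MP. Both LSK arrays lay above both MP arrays, with a mean difference of 1.20 ± 0.09 (SE, 2 pools), 2.30-fold, and an adjusted p of 0.000435 with limma. Its other probe set differed by 1.38 ± 0.11 (adjusted p with limma = 0.000564).

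Dnmt3a, the other de novo enzyme, was read by 5 probe sets, of which 4 passed, with differences from 0.61 to 1.06. On the brightest, 1423066_at, it had 10.40 in Smo-deficient LSK and 10.50 in WT LSK, against 9.86 in Smo-deficient MP and 9.66 in WT MP (0.69 ± 0.12, SE, limma adjusted p = 0.0106). On 1460324_at the difference was largest, 1.06 ± 0.11, with 1.05 in the Smo-deficient pool and 1.06 in the WT pool. The exception was 1423064_at, which differed by -0.05 (limma adjusted p = 0.771) and had 9.02 and 9.05 in LSK against 9.08 and 9.09 in MP. The sources used here do not say which transcripts each probe set reads.

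Dnmt1, which copies methylation to the new strand at replication, did not part by population on all its probe sets. One probe set, 1435122_x_at, passed at 0.25 ± 0.07 (SE, limma adjusted p = 0.0380), the other x_at probe set differed by 0.23 (0.126) and 1422946_a_at by -0.05 (0.666). Probe sets ending in x_at can hold probes that match other transcripts. Uhrf1, which brings Dnmt1 to hemimethylated DNA, had 11.44 and 11.54 in LSK against 11.58 and 11.84 in MP, a difference of -0.22 that did not pass (limma adjusted p = 0.15). The dimmer Uhrf1 probe set differed by 0.12 (limma adjusted p = 0.541).

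Of the TET genes, Tet1 alone passed. Its brightest probe set had log2 intensities of 9.31 in Smo-deficient LSK and 8.78 in WT LSK, against 8.14 in Smo-deficient MP and 8.03 in WT MP. The difference was 0.96 ± 0.14 (SE), 1.94-fold, with a limma adjusted p of 0.00455. A dimmer probe set passed too, at 0.47, and 1429448_s_at, at 0.10, did not. Tet2 differed by -0.05 on one probe set and 0.36 on the other (limma adjusted p = 0.788 and 0.0589). Tet3, read by 1 probe set near the filter, had 7.38 and 7.29 in LSK against 7.64 and 7.57 in MP, with both LSK arrays below both MP arrays at -0.27 (limma adjusted p = 0.122).

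Idh1, the cytosolic isocitrate dehydrogenase, was the only member called lower in LSK. It had 11.74 in Smo-deficient LSK and 11.10 in WT LSK, against 12.20 in Smo-deficient MP and 11.70 in WT MP. The Smo-deficient LSK array lay slightly above the WT MP array, so the groups overlap unless compared within a pool, where the differences were -0.45 in the Smo-deficient pool and -0.60 in the WT pool. The mean was -0.53 ± 0.09 (SE, limma adjusted p = 0.0100), and a second probe set had -0.68 (0.00734). Its mitochondrial paralog Idh2 had 12.49 and 12.53 in LSK against 12.49 and 12.36 in MP, a difference of 0.09 (limma adjusted p = 0.482), and 0.52 on a dimmer probe set (0.0782). The 5 myeloid progenitor markers had a median of -1.09 in the same comparison and the 4 mast cell and basophil markers one of -0.92, and their part in the Idh1 value was not tested.

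Of the 8 core and canonical PRC1 genes past the filter 3 rose in LSK and 0 fell, and of the 3 variant PRC1 genes 0 rose and 0 fell, beside 16.4% and 7.54% of all genes. Phc1, a Polyhomeotic subunit, had 10.65 in Smo-deficient LSK and 10.66 in WT LSK, against 9.94 in Smo-deficient MP and 10.01 in WT MP. That is a difference of 0.67 ± 0.11 (SE, limma adjusted p = 0.00726), and the 2 LSK arrays were nearly equal. Its paralog Phc2 had 10.50 and 10.41 in LSK against 10.44 and 10.64 in MP and differed by -0.09 (limma adjusted p = 0.653), and by 0.11 on another probe set.

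Cbx2, one of the CBX subunits that bind methylated lysine 27, had 10.08 in Smo-deficient LSK and 9.90 in WT LSK, against 9.28 in Smo-deficient MP and 9.37 in WT MP (0.67 ± 0.12, SE, limma adjusted p = 0.0115). A dim second probe set, below the filter, differed by -0.23. The other CBX members did not pass: Cbx7 had 7.38 and 7.10 in LSK against 7.52 and 7.45 in MP (-0.24), and Cbx8 had 8.48 and 8.24 against 8.51 and 8.13 (0.04). Limma gave them adjusted p of 0.183 and 0.822. Cbx7 is known from mouse to favour self-renewal of stem cells and Cbx2 and Cbx8 to act in differentiating progenitors.

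Rnf2 (Ring1B), the main E3 ligase of PRC1, rose on both probe sets past the filter. The brighter had 12.54 in Smo-deficient LSK and 12.28 in WT LSK, against 11.97 in Smo-deficient MP and 11.96 in WT MP (0.44 ± 0.09, SE, limma adjusted p = 0.0181), and the other differed by 0.38 (0.0493). Ring1, its paralog, had 9.11 and 9.09 in LSK against 9.20 and 9.49 in MP, at -0.24 (limma adjusted p = 0.212).

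Bmi1 did not pass, although it is the best known PRC1 gene of stem cells. Its brightest probe set had 11.96 and 11.95 in LSK against 11.78 and 11.93 in MP (0.10 ± 0.09, SE, limma adjusted p = 0.473). The second had 10.41 and 10.40 against 10.12 and 10.12 (0.29 ± 0.11, 0.110), and its pools differed little, at 0.29 in the Smo-deficient pool and 0.28 in the WT pool. Pcgf2 (Mel-18), the paralog of Bmi1, was the member below the filter on all its probe sets, with log2 intensities from 6.78 to 6.90 on the brighter one, so no difference was tested.

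The variant PRC1 genes Pcgf1, Pcgf6 and Kdm2b had differences from -0.16 to 0.09, and 0 of 3 passed with limma (0 at an unadjusted p under 0.05). Kdm2b, whose CXXC domain brings variant PRC1 to CpG islands, had 13.17 and 13.09 in LSK against 12.95 and 13.13 in MP.

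In PRC2, Jarid2, a DNA-binding cofactor, rose. It had 11.19 in Smo-deficient LSK and 11.38 in WT LSK, against 10.73 in Smo-deficient MP and 10.77 in WT MP (0.54 ± 0.10, SE, limma adjusted p = 0.0138). A second probe set passed at 0.41, and a dimmer one, at -0.02, did not.

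The 3 core subunits of PRC2 did not pass. Ezh2, the methyltransferase, had 12.83 and 12.97 in LSK against 12.88 and 13.02 in MP, with the same difference of -0.05 in both pools. Suz12 differed by -0.01 to 0.24 over 5 probe sets, and Eed by 0.08. Ezh1, the alternative methyltransferase of quiescent cells, had 9.96 in Smo-deficient LSK and 9.49 in WT LSK, against 9.35 in Smo-deficient MP and 9.24 in WT MP. All LSK values were above all MP values, but the pools differed, with 0.62 in the Smo-deficient pool and 0.25 in the WT pool (0.43 ± 0.13, SE, limma adjusted p = 0.0612).

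**Figure D1:**
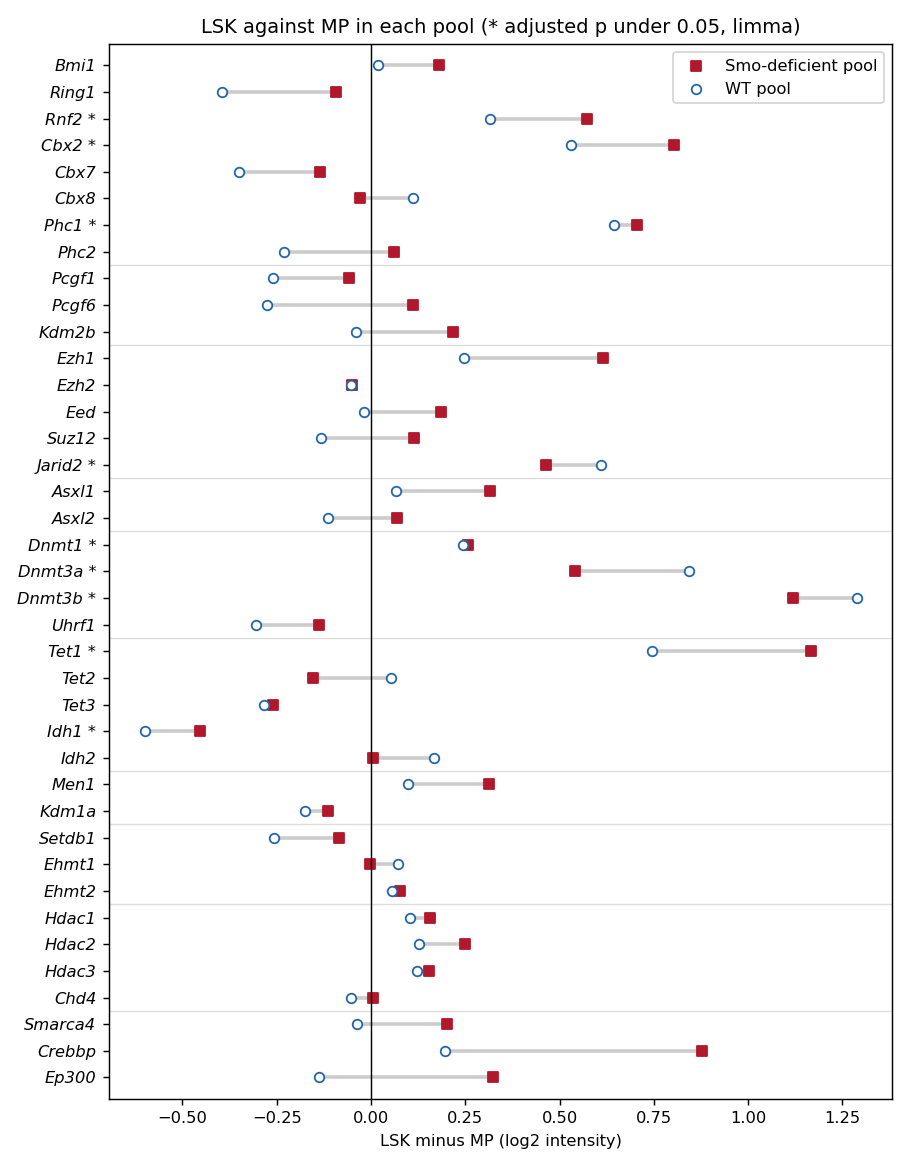
LSK minus MP in log2 intensity (x axis) for the 39 genes past the filter (y axis, in blocks by role), on the brightest probe set of each, with a red square for the Smo-deficient pool, an open blue circle for the WT pool and an asterisk for an adjusted p under 0.05. Dnmt3b, Tet1, Dnmt3a, Phc1 and Cbx2 lie furthest right among those called, Idh1 furthest left, and the bar of Crebbp is the longest, from 0.20 in WT to 0.88 in the Smo-deficient pool.

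Over all genes 16.4% were called higher and 7.54% lower, and groups of 2 to 4 genes are too small to set against that. Of the remaining groups, none had a gene that passed on its brightest probe set with limma. They are the ASXL genes (0 of 2), Men1 and Kdm1a (0 of 2), the H3K9 methyltransferase genes (0 of 3), the deacetylase and NuRD genes (0 of 4) and the remodelling and acetylation genes (0 of 3), with 0, 0, 0, 1 and 1 at an unadjusted p under 0.05. Asxl1, a partner of the H2A deubiquitinase Bap1, differed by 0.19 and -0.20 on its 2 brighter probe sets, and Asxl2 by -0.02. Men1 encodes menin, which tethers MLL methyltransferases, and Kdm1a removes methyl groups from lysine 4 of histone H3, and they differed by 0.21 and -0.14. Dimmer probe sets past the filter differed by 0.01 and 0.02 for Men1 and by -0.28 for Kdm1a. Setdb1, Ehmt1 and Ehmt2, which methylate lysine 9 of histone H3, differed by -0.17, 0.03 and 0.07.

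The deacetylase genes Hdac1, Hdac2 and Hdac3 were all slightly higher in LSK, at 0.13, 0.19 and 0.14 (limma adjusted p = 0.286, 0.114 and 0.391). Hdac2 had 12.78 and 12.87 in LSK against 12.53 and 12.75 in MP, and Hdac1 had 12.24 and 12.35 against 12.09 and 12.24. Chd4, of the same group, differed by -0.02 on its brightest probe set and by 0.48 and 0.32 on the others (limma adjusted p = 0.869, 0.239 and 0.157). On 1436343_at, at 0.48, the Smo-deficient pool had 1.10 and the WT pool -0.15. Smarca4, the ATPase of BAF complexes, differed by 0.08. Ehmt1 had 11.13 and 11.13 in LSK against 11.13 and 11.06 in MP, and Ehmt2 had 11.97 and 11.97 against 11.90 and 11.92. On a dimmer probe set Ehmt2 differed by -0.21 (limma adjusted p = 0.225).

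Crebbp, an acetyltransferase of lysine 27 of histone H3, was called on 1 of 3 probe sets. That one, 1436983_at, had 11.36 in Smo-deficient LSK and 11.00 in WT LSK, against 10.16 in Smo-deficient MP and 9.95 in WT MP (1.12 ± 0.11, SE, limma adjusted p = 0.00118). The brightest had 11.46 and 10.84 in LSK against 10.59 and 10.65 in MP, at 0.54 with a limma adjusted p of 0.0647, and the last differed by 0.42 (0.0696). Its paralog Ep300 had 10.49 and 10.11 in LSK against 10.17 and 10.24 in MP (0.09, limma adjusted p = 0.679).

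**Figure D2:**
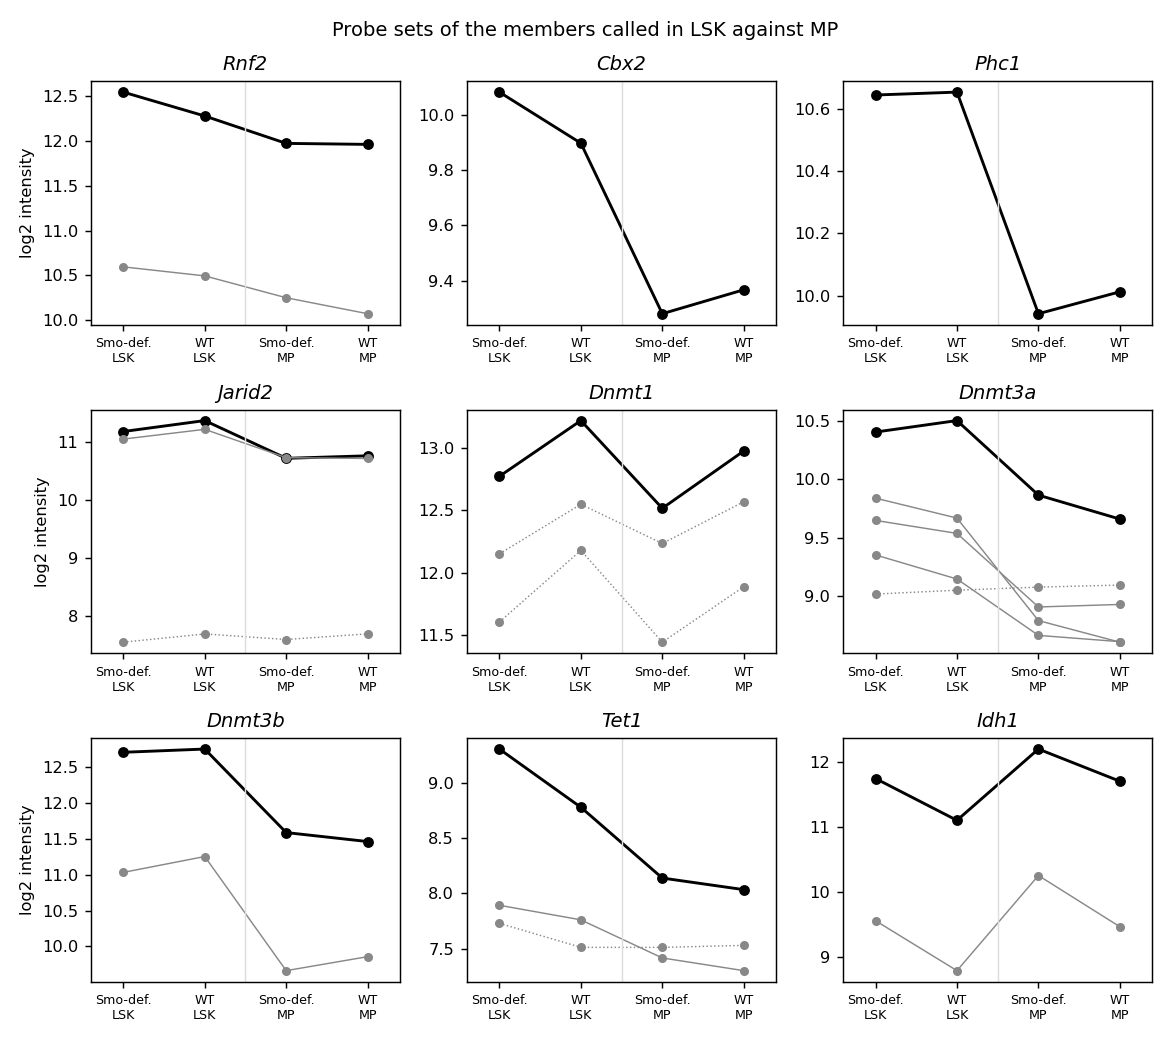
Log2 intensity (y axis, its own range in each panel) on the 4 arrays (x axis, LSK left of the grey line, MP right) for the 9 genes called on their brightest probe set. Black is that probe set, grey the other probe sets past the filter, solid lines passed the test and dotted ones did not; Dnmt3b steps down from LSK to MP on both probe sets, Idh1 steps up within each genotype, and 1 of the 5 Dnmt3a probe sets stays flat.

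In all, 10 genes had at least 1 probe set called, 8 of these had several past the filter, and for 3 of the 8 (Rnf2, Dnmt3b and Idh1) all of them were called. No gene was called in both directions. In 27 of 39 genes the sign of LSK minus MP was the same in both pools. The shares of all genes with any probe set called, or with the same sign, were not counted. These counts thus describe the members only. Without the pool as a block, 1 of the 9 gene calls was kept with limma, that of Dnmt3b (adjusted p = 0.0102). Limma without the block gave Phc1 and Tet1 adjusted p of 0.0537, Idh1 0.296 and Dnmt1 0.508. The share of all genes that kept a call was not counted. The residual of the block design has 1 degree of freedom before moderation and holds any effect of genotype on the difference, so the p-values say nothing of how single mice vary.

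Other genes were read from a wider list of 142 symbols, chromatin regulators and 9 known target genes, of which 132 were measured and 125 past the filter. In LSK 24 rose and 4 fell with limma, beside the 16.4% and 7.54% of all genes given above. The largest rises were those of Meis1 (2.22), Smarca2 (1.32) and Hoxa9 (1.11). Meis1 and Hoxa9 are not regulators of chromatin but targets of menin and MLL in blood cells, and Meis1 is also 1 of the 8 stem markers. Smarca2 encodes the alternative ATPase of BAF complexes, and the regulator next to it was the acetyltransferase gene Kat6b (1.08). Smarca2 had 10.48 in Smo-deficient LSK and 10.35 in WT LSK, against 9.15 in Smo-deficient MP and 9.04 in WT MP, whereas the member Smarca4 was nearly level. The largest falls were those of Mbd2 (-0.65), which binds methylated DNA, Hdac7 (-0.56) and L3mbtl2 (-0.46), a subunit of a variant PRC1. Cdkn2a, the best known target of Bmi1, was below the filter, and its 4 arrays lay between 5.30 and 5.75 in log2 intensity.

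Smo-deficient cells were compared with WT cells in each population. The 2 genotypes also differ in Mx1Cre and in the pool of mice, so loss of Smo cannot be told apart from these. No member probe set past the filter differed by 2-fold. In LSK 0 of 74 member probe sets reached 2-fold, against 0.822% of all, and in MP 0 of 74, against 0.639%. With 1 array per group there is no test, and in bulk RNA fewer cells of a type and less RNA per cell cannot be told apart. These differences use the same 4 arrays as LSK minus MP. At 1.5-fold, 4 member probe sets were higher in Smo-deficient LSK (5.41%) and 0 lower, against 3.06% and 0.884% of all. In Smo-deficient MP 1 was higher and 1 lower (1.35% each), against 2.35% and 2.63%. The 4 in LSK were both Idh1 probe sets and 1 each of Crebbp and Idh2. On the brightest probe sets 2 of 39 genes were 1.5-fold higher in Smo-deficient LSK, a share not counted over all genes. The median genotype difference over the 39 genes was -0.00 in LSK and -0.10 in MP, against -0.02 and -0.05 over all genes. Of the 39, 27 were lower in Smo-deficient MP, beside 59.7% of all probe sets. After quantile normalization 21 were, beside 51.5% of all, and after cyclic loess 20, beside 48.1%, so the MP direction depends on the scaling. The units differ, as each gene is read on its brightest probe set. Probe sets with a mean log2 intensity of at least 10 had a median of -0.11 in MP.

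With each gene read on its brightest probe set, Idh1 had the largest difference in both populations, higher in Smo-deficient cells. Its log2 intensity was 11.74 in Smo-deficient LSK and 11.10 in WT LSK (0.64), and 12.20 in Smo-deficient MP and 11.70 in WT MP (0.49). The second probe set had 9.56 and 8.79 in LSK (0.77, 1.70-fold) and 10.26 and 9.47 in MP (0.79, 1.72-fold). Both probe sets and both populations thus gave the same sign. The 5 myeloid progenitor markers, which were higher in MP as Idh1 was, were all higher in Smo-deficient cells too, with medians of 0.62 in LSK and 0.61 in MP. Their summed level was 15.77 on the log2 scale in Smo-deficient LSK and 15.36 in WT LSK, and 16.64 in Smo-deficient MP and 16.19 in WT MP, and their part in the Idh1 difference was not tested. Idh2 had -0.04 in LSK and 0.13 in MP, and its dimmer probe set 0.63 and -0.08.

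Dnmt1 had the lowest difference of the 39 genes in both populations, and all 3 of its probe sets were lower in Smo-deficient cells. The brightest had 12.77 in Smo-deficient LSK and 13.22 in WT LSK (-0.45), and 12.52 in Smo-deficient MP and 12.98 in WT MP (-0.46). The others differed by -0.40 and -0.57 in LSK and by -0.33 and -0.44 in MP. Read on its brightest probe set, it was the only one of the 39 genes outside the central 95% of all probe sets in LSK, and in MP none was. Of the 74 member probe sets, 3 were outside in LSK and 2 in MP. In LSK these were Dnmt1 (-0.45 and -0.57) and Idh1 (0.77), and in MP Idh1 (0.79) and Chd4 (-0.95). A central 95% range leaves out some probe sets by definition, so lying outside it does not by itself set a gene apart. That range ran from -0.43 to 0.64 in LSK and from -0.59 to 0.57 in MP. Dnmt1 is known to be transcribed in S phase. Of the 14 measured proliferation markers past the filter, 14 were lower in Smo-deficient LSK (median -0.22) and 13 in Smo-deficient MP (median -0.36). Of all probe sets 53.3% were lower in LSK and 59.7% in MP, and the MP share depends on the scaling. Those with a mean log2 intensity of at least 10 had medians of -0.03 in LSK and -0.11 in MP. The summed level of the proliferation markers was 16.56 in Smo-deficient LSK and 16.75 in WT LSK, and 16.56 in Smo-deficient MP and 16.78 in WT MP. The part of proliferation in the Dnmt1 difference was not tested. Uhrf1, also linked to S phase, differed by -0.09 and -0.26 on its brighter probe set and by 0.11 and 0.43 on the other. Dnmt3a had -0.10 in LSK and 0.21 in MP. Dnmt3b had -0.05 and 0.12 on its brightest probe set and -0.22 and -0.19 on the other.

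After Idh1, the members with the highest differences in Smo-deficient LSK were Crebbp, Tet1, Ezh1 and Ep300. Crebbp had 11.46 in Smo-deficient LSK and 10.84 in WT LSK (0.62), and its other probe sets differed by 0.36 and 0.49. In MP its 3 probe sets gave -0.06, 0.21 and 0.11. Ep300 differed by 0.38 in LSK and -0.08 in MP.

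Tet1 had 9.31 in Smo-deficient LSK and 8.78 in WT LSK (0.53), but 0.13 and 0.22 on its other probe sets, and 0.10 in MP. Ezh1 differed by 0.47 in LSK and 0.10 in MP on its single probe set past the filter. Markers of other cell types were higher in the Smo-deficient LSK array as well, with medians of 0.77 for 8 of 8 neutrophil genes, 0.66 for 6 of 6 macrophage genes, 0.60 for 5 of 5 B cell genes and 0.80 for 3 of 3 mature erythroid genes past the filter, while the 6 megakaryocyte genes had -0.84 and the 4 T and NK cell genes 0.10. The 8 stem and multipotent markers, which like Tet1 were higher in LSK than in MP, had a median of 0.24 in LSK, with 6 higher and 2 lower, from 1.21 for Flt3 and 1.11 for Procr to -0.51 for Slamf1. Their summed level was 15.12 in Smo-deficient LSK and 14.69 in WT LSK. The summed level of the neutrophil genes was 16.84 in Smo-deficient LSK and 16.18 in WT LSK, that of the macrophage genes 11.50 and 10.84, that of the B cell genes 11.35 and 10.73, and that of the megakaryocyte genes 13.92 and 14.68. Their part in the differences of Crebbp, Tet1 and Ezh1 was not tested.

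**Figure D3:**
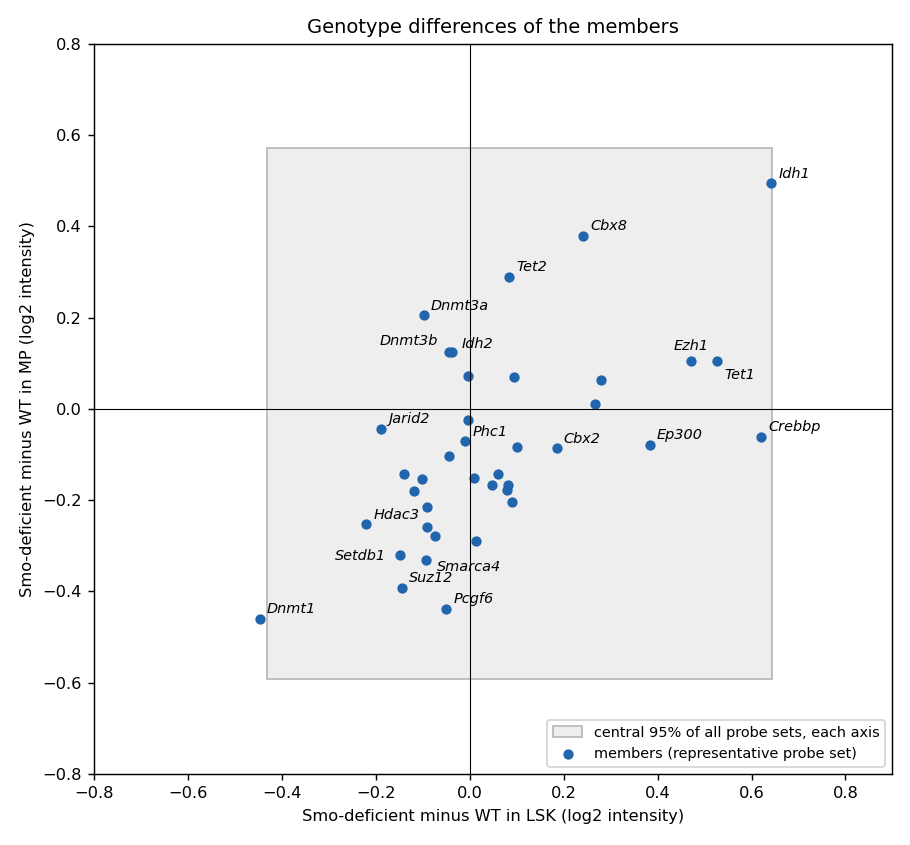
Smo-deficient minus WT in log2 intensity in LSK (x axis) and in MP (y axis) for the 39 genes on their brightest probe sets, with names for some. The grey box spans the central 95% of all 22518 probe sets on each axis; Idh1 lies at its right edge (0.64, 0.49), and Dnmt1 just outside its left edge (-0.45, -0.46).

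Other members at the ends of the order in LSK were Hdac3 (-0.22), Jarid2 (-0.19), Setdb1 (-0.15) and Suz12 (-0.15). Suz12, whose 5 probe sets past the filter ran from -0.41 to 0.09 in LSK and from -0.39 to -0.10 in MP, was thus lower on all of them in MP. In MP the lowest after Dnmt1 were Pcgf6 (-0.44), Suz12 (-0.39), Smarca4 (-0.33) and Setdb1 (-0.32). Pcgf6 had 10.87 in Smo-deficient MP and 11.31 in WT MP, but 10.98 in Smo-deficient LSK and 11.03 in WT LSK.

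After Idh1, the highest in Smo-deficient MP were Cbx8 (0.38), Tet2 (0.29), Dnmt3a (0.21) and Idh2 (0.13). Tet2 had 8.40 in Smo-deficient LSK and 8.31 in WT LSK, and 8.55 in Smo-deficient MP and 8.26 in WT MP. On its dimmer probe set it had 8.13 and 7.66 in LSK (0.47), and 7.81 and 7.26 in MP (0.55), higher in Smo-deficient cells of both populations. Cbx8 had 8.48 in Smo-deficient LSK and 8.24 in WT LSK (0.24), and 8.51 in Smo-deficient MP and 8.13 in WT MP.

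Other Polycomb genes had genotype differences of either sign. Bmi1 had a difference of 0.01 in LSK and -0.15 in MP, Ezh2 had -0.14 in both, Eed had -0.07 and -0.28, and Rnf2 had 0.27 and 0.01. In all, 21 of 39 genes were within 1 scaled median absolute deviation of all probe sets in both populations (0.21 in LSK and 0.23 in MP). Signs in LSK and MP were the same for 24 of 39 genes, 16 lower and 8 higher, and both populations came from the same pair of pools. The share of all genes was not counted for either of these. In the wider list 0 of 125 genes reached 2-fold in either population, beside 0.822% of all probe sets in LSK and 0.639% in MP. Its highest in Smo-deficient LSK were the acetyltransferase gene Kat6b (0.76) and the demethylase gene Kdm7a (0.54), and its lowest the H3K9 methyltransferase gene Suv39h2 (-0.39) and Asxl3 (-0.31). In MP Hdac11 (0.85) and the BAF subunit gene Arid1b (0.57) were highest, and the acetyl-lysine reader gene Brd2 (-0.59) and the demethylase gene Kdm4a (-0.56) lowest.

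Probe sets of Chd4, the ATPase of the NuRD complex, did not give 1 answer. On 1436343_at it had 11.60 in Smo-deficient LSK and 11.31 in WT LSK (0.29), but 10.50 in Smo-deficient MP and 11.46 in WT MP (-0.95). The Smo-deficient MP array was the low one. On the brightest probe set the differences were -0.04 for LSK and -0.10 for MP, and on 1438476_a_at 0.13 and -0.31.

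**Figure D4:**
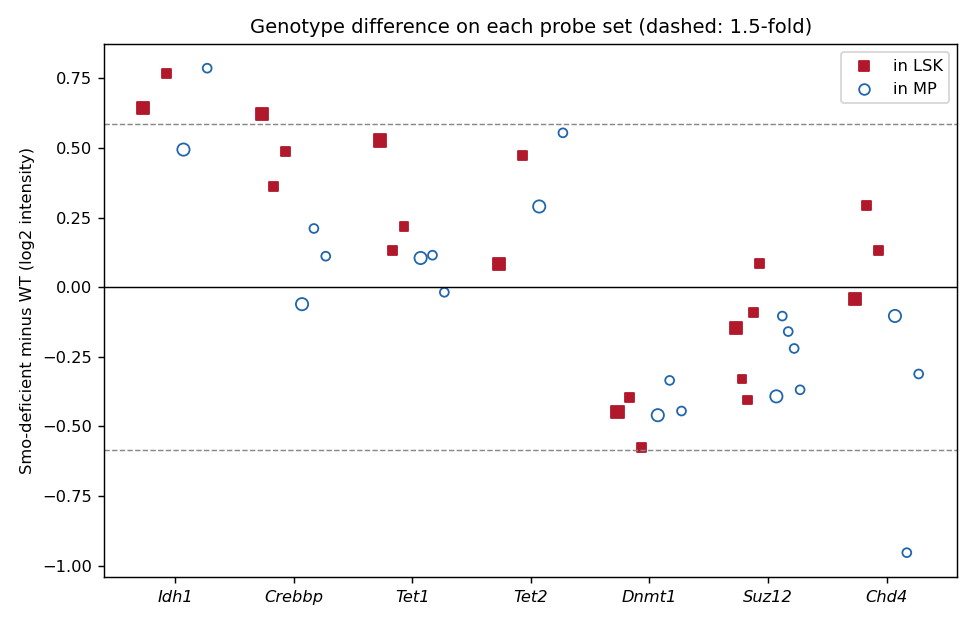
Smo-deficient minus WT in log2 intensity (y axis) on every probe set past the filter for 7 members (x axis), with red squares for LSK, open blue circles for MP, larger symbols for the brightest probe set and dashed lines at 1.5-fold. Idh1 is above 0 and Dnmt1 below 0 on every probe set in both populations, Crebbp lies from 0.36 to 0.62 in LSK and from -0.06 to 0.21 in MP, and 1 Chd4 probe set lies at -0.95 in MP.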

How the data were processed

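The deposited table holds an intensity for each of 45101 probe sets on each of the 4 arrays. Per the submitters' processing notes it came from RMA, which subtracts background, quantile-normalizes and sums up probes; the sources used here give no version. Per the labels, 20 ng of total RNA went through 2 cycles of amplification. RMA output is usually on a log2 scale, but these values ran from 12.3 to 44290.5 and were read as linear, and log2 was taken with no offset. Quantile normalization removes a change shared by most genes. When applied again to the deposited values, it moved the median genotype difference in MP from -0.05 to -0.01 over probe sets past the filter. As deposited, the arrays thus did not share the same distribution of values, and the cause was not tested. The 64 control probe sets were set aside. Symbols came from the platform annotation, where 34945 probe sets have 1 gene and 932 several, none of them a member; each gene was represented by its brightest single-gene probe set.

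LSK minus MP was fitted with limma 3.58.1 in R 4.3.3 (lmFit, eBayes with trend) over all probe sets past the filter. The pool was a block because both populations were sorted from the same marrow. A run on simulated arrays with independent noise and no effect of pool checked the code only, not how well the model suits these arrays. The pool and the genotype are the same factor. Genotype differences had no test; 2-fold and 1.5-fold were counted. The number of arrays limits the precision.

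Alternatives were quantile, cyclic loess and median scaling, other filters, an offset of 16, gene means, no trend, no block and each pool alone. Named members are those that passed with a difference of at least 0.5, the 5 highest and 5 lowest genotype differences in each population, and 9 sets of paralogs; of the wider list, the 3 largest passing differences each way and the 2 highest and lowest genotype differences. Others named were chosen after their values were seen. The members and lists were chosen with earlier results of these data known. Scanner files were not used here.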

Additional observations from a re-analysis of the deposited data

Results flagged for a closer look

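Chd4 on 1436343_at was higher in Smo-deficient LSK than in WT LSK (0.29) and lower in Smo-deficient MP than in WT MP (-0.95), so its genotype differences have opposite signs, and they are 1.25 apart on the log2 scale. The other Chd4 probe sets past the filter had differences between populations of 0.06 and 0.44. With 1 array per group the difference was not tested, and no outlier could be looked for within a group.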

How the results depend on the processing

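With the pool left out as a block, limma called 1 gene higher and 0 lower in LSK, in place of 8 and 1, and 5 and 0 member probe sets in place of 16 and 2. The share of all probe sets called without the block was not counted. Whether the members lost more calls than other genes is thus not known. The pairing comes from the shared pool of marrow. The 9 gene calls were all kept after quantile normalization, median centring, the offset and the filter at the 25th percentile. Cyclic loess added Crebbp (adjusted p = 0.0420) and Ezh1 (0.0477). Dnmt1 lost its call without the filter (0.0565) and without the trend (0.133). With a gene read as the mean of its probe sets, 5 genes were higher, without Cbx2, Dnmt1, Jarid2 and Rnf2 and with Crebbp; the means include dim probe sets. The same means moved the genotype difference in LSK to 0.05 for Ezh1, 0.22 for Tet1, 0.39 for Crebbp and 0.30 for Idh2. From single pools the median LSK minus MP of the members was 0.05 to 0.15. Member probe sets 1.5-fold higher in Smo-deficient MP were 2 after quantile normalization and 2 after cyclic loess, in place of 1. No called result changed sign under these settings. The cause of these shifts was not tested. Dim members, Pcgf2 above all, are limited by the background.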
